A study of Mus musculus with 18 samples.

Results

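In the arrays described here, cultured mouse myoblasts that carried a strong interferon response while dividing were set against myoblasts that had switched on muscle genes. The latter held lower levels of most antiviral genes that interferon induces. The 2 sets hold 6 of the 18 arrays of the study and were chosen by measured values. The 3 muscle-high arrays had Ckm (muscle creatine kinase, which buffers ATP in contracting fibres) above 10 on the log2 scale and an unnamed marker probe at background. The 3 interferon-high dividing arrays had Ckm below 10 and Usp18 (the protease that removes ISG15 from proteins, itself induced by interferon) above 12. 6 arrays in all met the condition on Ckm and the marker probe, and the selection named 3 of them. The other 3 serve below as a comparison.

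The study measured total RNA on Illumina MouseWG-6 bead arrays, in myoblasts of strain Gata4tm1.1Sad/J, so that every group carries Gata4 flanked by loxP sites. Cells labelled KO had received an adenovirus with Cre, cells labelled Wt an adenovirus with nuclear β-galactosidase, and cells labelled OE a retrovirus with GATA4, so that vector and cargo both differ between OE and Wt. Day 3 means 3 days in differentiation medium (DMEM with 5% FBS) and day 0 means growth medium (Ham's/F10 with 20% FBS and bFGF). There were 3 arrays in each of 6 labelled groups, and the labels do not say that replicates were separate cultures or animals. The titles of the muscle-high arrays are Wt day 3 replicate 3, KO day 3 replicate 1 and KO day 3 replicate 2. Those of the interferon-high dividing arrays are KO day 0 replicate 2, KO day 0 replicate 3 and Wt day 3 replicate 2. 4 of the 6 titles thus fit KO day 3 and KO day 0, while 1 array titled Wt day 3 stands in each set. Throughout the series the muscle program did not follow the titles closely: of the 9 arrays with Ckm above 10, 6 were titled day 3 and 3 were titled day 0, and of the 9 arrays below it, 3 were titled day 3 and 6 day 0.

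Myoblasts are the dividing precursors of skeletal muscle. When they differentiate, transcription factors of the MyoD family and MEF2 switch on contractile and metabolic genes through E-boxes and MEF2 sites, the cells leave the cell cycle, and they fuse into myotubes. Interferon acts through receptor-bound kinases on transcription factors that bind interferon-stimulated response elements (ISRE) and induce antiviral proteins, guanylate-binding proteins and the machinery that presents antigens on MHC class I. The 2 programs use different factors, and in these arrays they moved at the same time, so each gene was also read in arrays where the muscle program differed and Usp18 was low on both sides.

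The promoters below are shown because they carry the sequence elements of the 3 programs that separate the sets. They come from RefSeq on build GRCm38.p6 and run from 250 bases before the gene's start to 50 bases into it, 5′ to 3′ on the gene's strand. Capitals in the interferon genes mark ISRE cores, defined as GAAA, 2 bases of any kind and GAAA on either strand, and neighbouring matches overlap in Isg15 and Gbp3. Capitals in Myh4 mark the E-box CAGCTG and a MEF2 site. Capitals in Top2a and Cdk1 mark CCAAT and the cell cycle element TTTGAA on either strand. Isg15 encodes a ubiquitin-like protein, Ifit3 an antiviral RNA-complex protein, Gbp3 and Irgm2 interferon-inducible GTPases, Myh4 the myosin heavy chain of fast fibres, Top2a topoisomerase II and Cdk1 the kinase that drives mitosis.
Isg15 (chr4:156200769-156201068, minus strand): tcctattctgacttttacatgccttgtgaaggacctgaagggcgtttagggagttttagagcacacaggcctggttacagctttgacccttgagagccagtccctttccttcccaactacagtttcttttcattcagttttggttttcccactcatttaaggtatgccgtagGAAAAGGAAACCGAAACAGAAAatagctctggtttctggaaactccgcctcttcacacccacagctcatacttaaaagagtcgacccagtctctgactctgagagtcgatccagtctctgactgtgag
Ifit3 (chr19:34583279-34583578, plus strand): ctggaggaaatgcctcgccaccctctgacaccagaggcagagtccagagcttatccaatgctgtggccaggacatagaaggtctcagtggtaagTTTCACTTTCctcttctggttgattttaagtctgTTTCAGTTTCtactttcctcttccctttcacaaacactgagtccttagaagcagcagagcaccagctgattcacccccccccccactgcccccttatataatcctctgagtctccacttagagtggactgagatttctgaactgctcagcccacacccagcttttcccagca
Gbp3 (chr3:142559794-142560093, plus strand): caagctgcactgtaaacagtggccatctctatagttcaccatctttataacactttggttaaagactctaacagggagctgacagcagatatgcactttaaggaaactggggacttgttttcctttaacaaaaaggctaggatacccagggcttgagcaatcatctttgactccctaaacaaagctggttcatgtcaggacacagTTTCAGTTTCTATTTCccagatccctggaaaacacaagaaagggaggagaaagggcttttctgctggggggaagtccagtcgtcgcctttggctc
Irgm2 (chr11:58214727-58215026, plus strand): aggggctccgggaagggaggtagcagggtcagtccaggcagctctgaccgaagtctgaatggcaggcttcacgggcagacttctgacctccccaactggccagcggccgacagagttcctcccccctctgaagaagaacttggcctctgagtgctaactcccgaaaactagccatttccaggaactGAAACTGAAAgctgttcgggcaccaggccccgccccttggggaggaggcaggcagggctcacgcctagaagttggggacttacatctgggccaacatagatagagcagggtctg
Myh4 (chr11:67237562-67237861, plus strand): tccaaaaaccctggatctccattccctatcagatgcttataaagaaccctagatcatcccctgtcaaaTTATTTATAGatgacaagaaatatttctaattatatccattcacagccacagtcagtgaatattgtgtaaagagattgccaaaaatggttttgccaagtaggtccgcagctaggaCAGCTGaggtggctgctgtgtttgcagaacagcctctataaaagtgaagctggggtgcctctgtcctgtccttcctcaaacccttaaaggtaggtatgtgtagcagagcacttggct
Top2a (chr11:99024140-99024439, minus strand): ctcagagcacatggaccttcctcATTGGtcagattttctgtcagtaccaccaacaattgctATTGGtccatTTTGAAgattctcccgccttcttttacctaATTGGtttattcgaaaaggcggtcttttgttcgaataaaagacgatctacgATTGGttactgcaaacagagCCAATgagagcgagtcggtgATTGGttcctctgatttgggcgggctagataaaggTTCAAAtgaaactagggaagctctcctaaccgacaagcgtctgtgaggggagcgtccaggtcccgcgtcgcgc
Cdk1 (chr10:69352863-69353162, minus strand): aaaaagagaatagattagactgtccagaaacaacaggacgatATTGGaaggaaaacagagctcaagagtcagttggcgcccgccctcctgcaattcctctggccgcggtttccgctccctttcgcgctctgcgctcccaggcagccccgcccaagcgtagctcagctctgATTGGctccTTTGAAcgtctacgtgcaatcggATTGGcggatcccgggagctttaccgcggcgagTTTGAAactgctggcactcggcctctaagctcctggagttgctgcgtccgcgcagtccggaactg

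A promoter window was listed for 9636 of the 11921 genes measured. Of all 27025 windows, 3.49% held an ISRE core, 16.1% the E-box, 3.26% a MEF2 site, 37.9% CCAAT and 18.1% TTTGAA. Over the windows of measured genes these shares were 2.92%, 15.4%, 1.85%, 38.6% and 12.2%. An ISRE core was present in 6 of the 7 windows listed for interferon-inducible GTPases (85.7%), in 7 of 21 for antiviral genes (33.3%) and in 0 of 29 for sarcomere genes. The E-box was present in 12 of 29 sarcomere windows (41.4%), in 8 of 14 for excitation coupling (57.1%) and in 8 of 17 for muscle energy enzymes (47.1%), and MEF2 sites in 6 of 29 sarcomere windows (20.7%). Mitosis genes held TTTGAA in 19 of 24 windows (79.2%) and CCAAT in 16 of 24 (66.7%). The elements were not limited to these lists. TTTGAA was present in 4 of 7 windows for interferon-inducible GTPases (57.1%) and in 4 of 29 for DNA replication (13.8%). CCAAT was present in 10 of 16 windows for MHC class I (62.5%) and the E-box in 6 of 21 for antiviral genes (28.6%). The window of Irf7 held no ISRE core, which says only that these letters are not in these bases. Matches describe the sequence and do not show that a factor bound there.

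All values that follow are log2 intensities after background correction and quantile normalisation, where 1 unit is a 2-fold difference, and the dimmest detected probe of an array lay between 4.61 and 4.84. Ckm stood at 11.22, 11.39 and 11.28 on the muscle-high arrays, against 8.05, 8.02 and 7.87 on the interferon-high dividing arrays. Usp18 stood at 5.23, 5.38 and 5.25 on the muscle-high arrays, against 12.41, 12.40 and 12.52 on the interferon-high dividing arrays. Both genes chose the sets, so their separation is a description. The lowest Ckm value above its limit in the series was 10.87 and the highest below it 8.05, and the lowest Usp18 value above 12 was 12.40 and the next array stood at 9.94, so no array lay near a limit. The marker probe lay at 4.46 or less on 12 arrays and at 13.36 or more on the other 6.

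The remaining 12 arrays form 4 further sets of 3 by the same measures. They are other muscle-high arrays with Usp18 low (KO day 0 replicate 1, KO day 3 replicate 3 and OE day 3 replicate 1), interferon-low dividing arrays (Wt day 0 replicates 2 and 3 and OE day 3 replicate 3), and muscle-high (OE day 0 replicate 2 and replicate 1 of both Wt day 0 and Wt day 3) and dividing arrays (OE day 3 replicate 2 with OE day 0 replicates 1 and 3) that carry the marker probe. Usp18 lay between 9.72 and 9.94 on the probe-bearing muscle-high arrays and at 5.43 or below on the other 3 of these sets. Between 17437 and 19966 of 45281 probes were detected on the 6 arrays, and the lowest correlation between arrays of 1 set was 0.985 over all genes, against at most 0.928 between a muscle-high and an interferon-high dividing array. Gata4 was close to background, at 4.48 to 4.64 on the muscle-high and 4.29 to 5.22 on the interferon-high dividing arrays, where 0 and 2 of 3 arrays detected it, and it lay between 4.24 and 5.32 on all 18 arrays, those labelled OE included, so it does not check the labels here. Since the sets were chosen on these arrays, no test was made between them. A gene is counted as higher or lower where the means differ by at least 1 and the 3 values of one set lie all above or all below the 3 of the other.

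By this rule 1046 genes (8.77% of 11921) were higher on the muscle-high than on the interferon-high dividing arrays and 1085 (9.1%) were lower, and no gene with a difference of 1 had overlapping values. The median difference over all genes was -0.03. For 72 of the higher and 52 of the lower genes the dimmer set did not detect the probe on any array, and for 18 and 19 of these the difference that is certain is under 1. For such a gene the text gives a bound, "at least" a fold, with the dimmer set put at the lowest signal that counts as detected. In bulk RNA a lower level cannot be told apart from fewer cells that express the gene.

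Contractile and metabolic genes of maturing fibres were mostly higher on the muscle-high arrays. Of 38 sarcomere genes measured, 28 were higher and 1 lower, with a median difference of 1.72. Of 22 genes for excitation coupling, 16 were higher and 0 lower (median 1.71), of 21 muscle energy enzymes 16 and 0 (1.86), and of 18 myogenic regulators and fusion genes 10 and 0 (1.32). These counts, and those of the lists below for the same 2 sets, stand against 8.77% higher and 9.1% lower over all genes. Nothing is read from them because the selection used this contrast.

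Myh4, the fast myosin whose promoter is shown above, stood at 8.13, 8.54 and 8.61 on the muscle-high arrays, against 4.65, 4.40 and 4.63 on the interferon-high dividing arrays. The dividing arrays did not detect it, so it was at least 13.1-fold higher. Myoz1, which anchors calcineurin at the Z-disc of fast fibres, stood at 8.91, 8.95 and 8.83 on the muscle-high arrays, against 4.96, 5.26 and 4.43 on the interferon-high dividing arrays (16.1-fold). Pvalb, the calcium buffer parvalbumin, stood at 10.51, 10.45 and 10.40 on the muscle-high arrays, against 6.41, 6.38 and 6.83 on the interferon-high dividing arrays (15.1-fold). For each of these genes the 2 sets lay several units apart and arrays within a set lay within 1 unit of one another. Mybpc1 (myosin-binding protein C, 3.02), Unc45b (a myosin chaperone, 2.63), Ampd1 (muscle AMP deaminase, 3.39), Ckmt2 (mitochondrial creatine kinase, 3.30) and Hrc (a calcium-binding protein of the sarcoplasmic reticulum, 2.27) were higher by the log2 differences given.

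The regulators of differentiation were present in both sets and differed by less. Myf6, a late member of the MyoD family, stood at 10.71, 10.80 and 10.72 on the muscle-high arrays, against 8.29, 7.98 and 8.28 on the interferon-high dividing arrays. Mef2c stood at 12.08, 11.83 and 11.96 on the muscle-high arrays, against 10.12, 9.84 and 10.26 on the interferon-high dividing arrays. Mymk, the membrane protein that drives fusion, stood at 11.19, 11.09 and 11 on the muscle-high arrays, against 9.19, 9.27 and 9.56 on the interferon-high dividing arrays. The interferon-high dividing arrays therefore held readily measured levels of genes of committed cells, Myog (myogenin) among them at 9.97 to 10.39, against 11.04 to 11.10 on the muscle-high arrays, a difference of 0.84 that was under the limit. Myod1 differed by 0.52. Cdkn1c, an inhibitor of cyclin-dependent kinases, stood at 13.37, 13.48 and 13.42 on the muscle-high arrays, against 10.80, 10.89 and 11.20 on the interferon-high dividing arrays.

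3 sarcomere genes had a negative difference. Tpm3, a tropomyosin of slow fibres and of non-muscle cells, was lower by the probe that represents it (-1.32), while its 6 probes ranged between -1.32 and 2.28. Myl1 (-0.32) and Tpm1 (-0.34) were under the limit, and the 3 probes of Myl1 ranged between -0.32 and 2.38. The sign of these genes thus depends on the probe. Acta1, skeletal actin, lay at 14.25 to 14.41 on the muscle-high arrays and at 14.23 to 14.30 on the interferon-high dividing arrays, so it did not separate the sets.

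**Figure D1:**
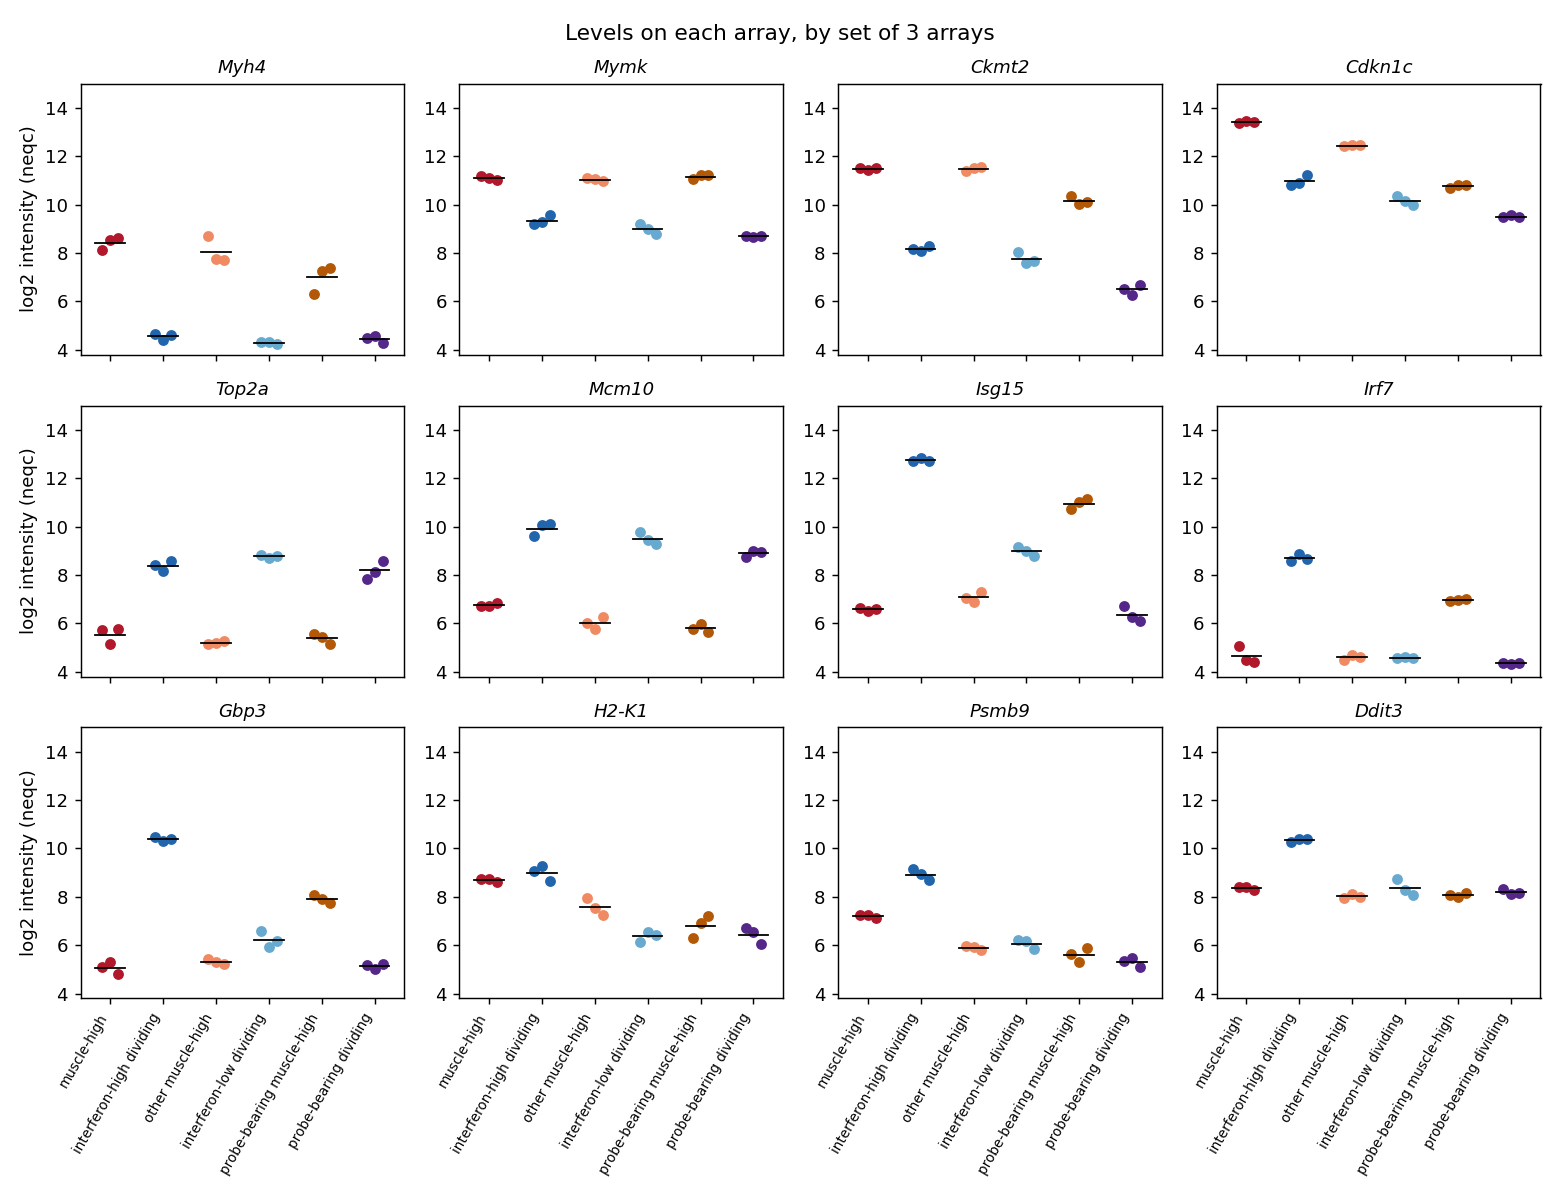
Log2 intensity of 12 genes on all 18 arrays, grouped into 6 sets of 3 on the horizontal axis. Points are arrays and lines are set means. The muscle genes Myh4, Mymk, Ckmt2 and Cdkn1c are higher in each muscle-high set than in the dividing set to its right and Top2a and Mcm10 are lower, whereas Isg15, Irf7 and Gbp3 are highest on the interferon-high dividing arrays.

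Cell cycle genes were mostly lower on the muscle-high arrays. Of 34 DNA replication genes 27 were lower and 0 higher (median -1.63), and of 28 mitosis genes 21 were lower and 0 higher (median -2.51). Mcm10, a DNA replication factor, stood at 6.74, 6.71 and 6.82 on the muscle-high arrays, against 9.59, 10.05 and 10.09 on the interferon-high dividing arrays. Top2a stood at 5.71, 5.13 and 5.75 on the muscle-high arrays, against 8.39, 8.16 and 8.59 on the interferon-high dividing arrays. Kif2c, a mitotic kinesin, stood at 5.34, 5.92 and 5.79 on the muscle-high arrays, against 8.32, 8.70 and 8.91 on the interferon-high dividing arrays. The word dividing for the second set rests on these genes. Tk1 (thymidine kinase, -2.77), Cdc6 (origin licensing, -2.74), Aurkb (-2.94) and Birc5 (-2.93), both of the chromosomal passenger complex, Anln (a cytokinesis scaffold, -2.92) and Cenpa (the centromeric histone, -2.81) were lower too. Kif23 was the exception at 0.64, and its 4 probes ranged between -3.27 and 0.64. The 2 probes of Cdc6 gave -2.74 and -0.42, those of Anln -2.92 and -0.78 and those of Cenpa -2.81 and -1.01.

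Interferon genes gave the largest negative differences. Of 30 antiviral genes 26 were lower and 0 higher, with a median difference of -3.0, and the mean over the list lay at 5.73 to 5.78 on the muscle-high arrays, against 9.05 to 9.11 on the interferon-high dividing arrays. Isg15 stood at 6.63, 6.52 and 6.60 on the muscle-high arrays, against 12.69, 12.83 and 12.70 on the interferon-high dividing arrays. Ifit3 stood at 4.84, 5.15 and 5.41 on the muscle-high arrays, against 11.77, 11.95 and 12.05 on the interferon-high dividing arrays. Mx2, a dynamin-like antiviral GTPase, stood at 4.69, 4.76 and 4.79 on the muscle-high arrays, against 10.13, 10.24 and 10.31 on the interferon-high dividing arrays. Mx2 and Ifit3 thus lay near background on the muscle-high arrays, and the sets did not come near each other in any of the 3 genes. Oasl2 (-6.11) and Oasl1 (-5.19), of the oligoadenylate synthetase-like family, were lower by the log2 differences given, and Parp14, an ADP-ribosyltransferase that the muscle-high arrays did not detect, was at least 27.8-fold lower.

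Of 27 interferon transcription factors and sensors, 12 were lower and 1 higher. Irf7, the factor that amplifies type I interferon, stood at 5.07, 4.47 and 4.40 on the muscle-high arrays, against 8.59, 8.85 and 8.65 on the interferon-high dividing arrays. Stat2 (-3.34) and Irf9 (-3.11), which take part in binding the ISRE, and the RNA sensor Dhx58 (-3.11) were lower. Stat3 was higher by 1.28, and the kinases Jak1 (0.20) and Tyk2 and the receptor chain Ifngr2 were under the limit. Of 9 interferon-inducible GTPases 6 were lower and 1 higher. Gbp3 stood at 5.10, 5.29 and 4.83 on the muscle-high arrays, against 10.47, 10.33 and 10.40 on the interferon-high dividing arrays. Gbp10 went the other way, by 1.77.

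The genes of antigen presentation were lower by less, with a median of -1.24 over 18 genes, of which 11 were lower and 1 higher. Psmb8, a subunit of the immunoproteasome, stood at 7.42, 7.33 and 7.21 on the muscle-high arrays, against 9.44, 9.39 and 9.54 on the interferon-high dividing arrays. H2-D1, a classical MHC class I heavy chain, stood at 10.47, 10.44 and 10.46 on the muscle-high arrays, against 11.94, 12.01 and 12.07 on the interferon-high dividing arrays. H2-K1, another heavy chain, stood at 8.74, 8.75 and 8.62 on the muscle-high arrays, against 9.06, 9.28 and 8.65 on the interferon-high dividing arrays. The values of H2-K1 overlapped, whereas those of Psmb8 and H2-D1 lay apart. Tap1, a subunit of the peptide transporter, was lower (-1.82) and Tap2, its partner, higher (1.46). The H2 genes are near-identical copies, so a probe may read more than 1 of them.

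Of 34 chemokine and NF-kB response genes, 20 were lower and 1 higher, with a median of -1.27. Ccl5, which attracts T cells and macrophages, stood at 4.93, 4.75 and 4.93 on the muscle-high arrays, against 10.51, 10.25 and 9.87 on the interferon-high dividing arrays. Cxcl10 (-4.46), Vcam1 (-2.60) and Cx3cl1 (-2.37) were lower, and 1 of the 3 muscle-high arrays detected Cxcl10, so its difference is set against a signal near background. Vcam1 is an adhesion molecule that NF-kB induces and that myoblasts also carry.

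**Figure D2:**
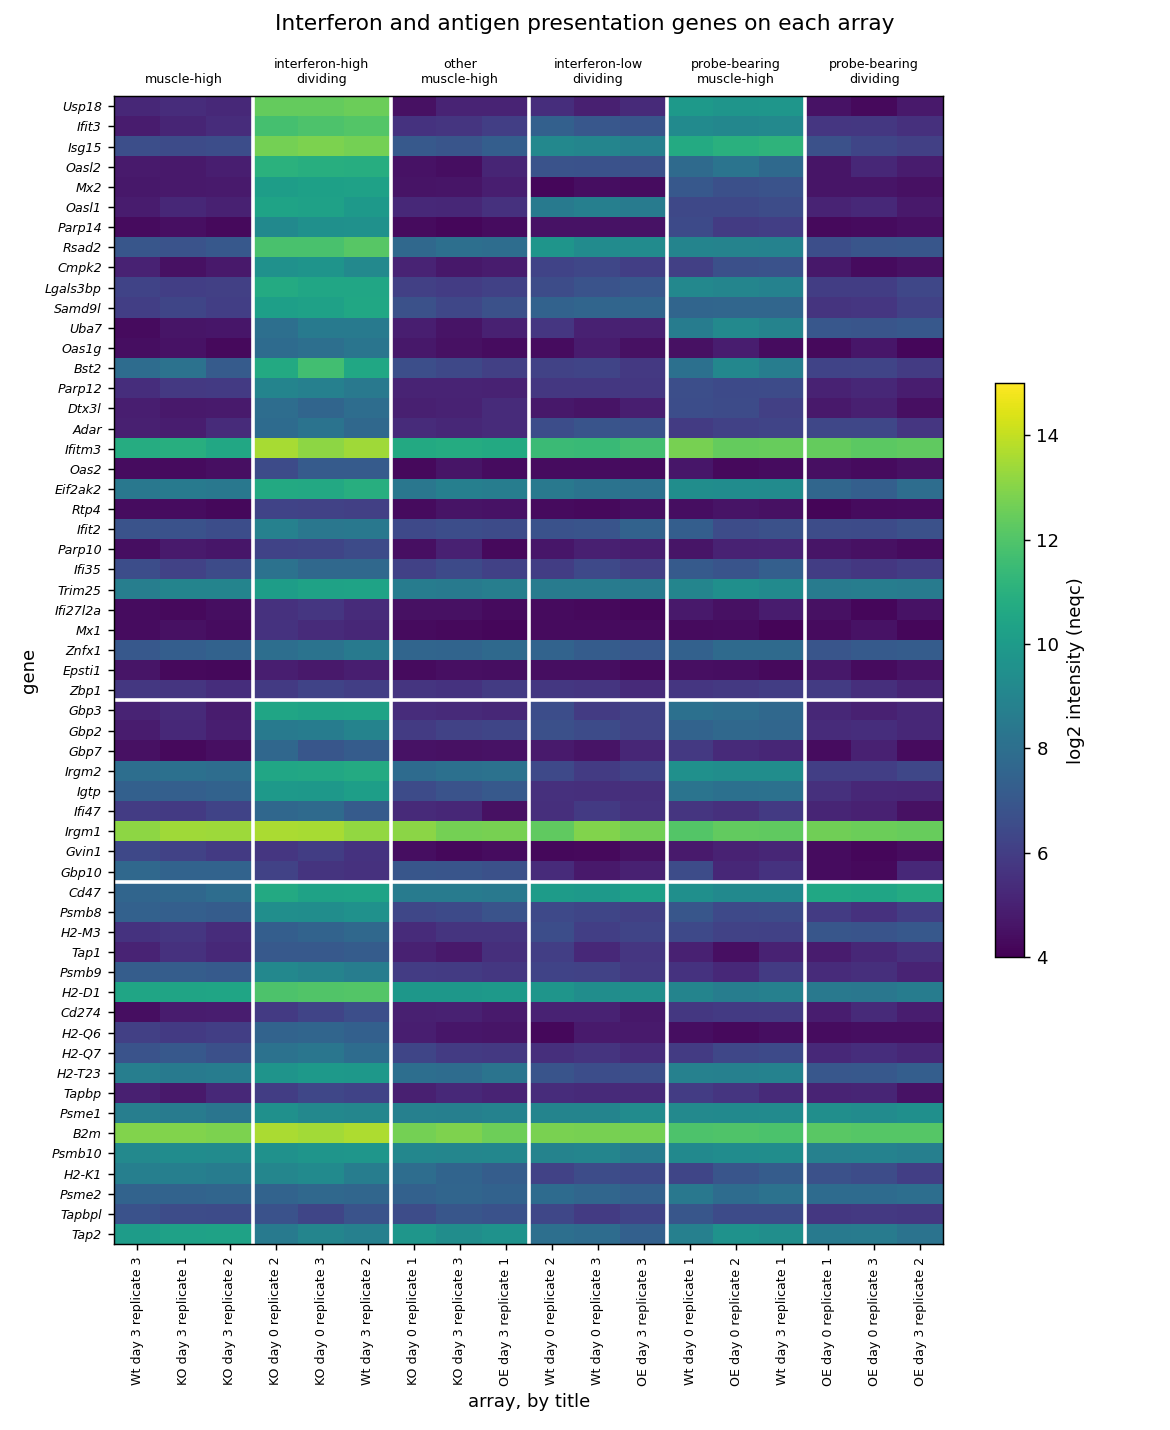
Log2 intensity (colour, 4 to 15) of antiviral genes, interferon-inducible GTPases and MHC class I genes, from top to bottom, on each array, with white lines between sets of 3. The interferon-high dividing arrays are bright in all 3 blocks, the muscle-high arrays to their left are dimmer in most rows of the first block and keep intermediate levels of several MHC genes, and the probe-bearing muscle-high arrays carry a part of the antiviral genes.

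To separate the muscle program from the lower interferon expression, the same measure was taken between the other muscle-high arrays and the interferon-low dividing arrays. Usp18 was low on all 6 of these, and they share no array with the 2 sets. There 1027 genes (8.62%) were higher and 842 (7.06%) were lower. Between the probe-bearing muscle-high and the probe-bearing dividing arrays, which share no array with either, 831 genes (6.97%) were higher and 802 (6.73%) lower. In the first comparison Usp18 differed by -7.15, in the second by -0.34 and in the third by 5.28, while Ckm was higher by 3.32, 3.77 and 4.10. These values of Usp18 and Ckm follow from how the arrays were chosen, and other interferon genes did not all follow Usp18, as given below.

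Among the 1046 genes higher on the muscle-high arrays, 786 were also higher between the other muscle-high and interferon-low dividing arrays, which is 75.1% of the first list and 76.5% of the 1027. 49 of them (4.68%) differed by under 0.5 in the second comparison, and 527 (50.4%) were higher in all 3 comparisons. Among the 1085 lower genes, 630 were also lower in the second comparison, which is 58.1% of the first list and 74.8% of the 842. 180 of them (16.6%) differed by under 0.5 there, and 11 differed by at least 1 the other way. The genes lower in all 3 comparisons numbered 479 (44.1%).

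The muscle lists had medians of like size in the 3 comparisons. The sarcomere median was 1.72 between the muscle-high and interferon-high dividing arrays, 1.67 between the other muscle-high and interferon-low dividing arrays and 1.98 between the probe-bearing arrays. For muscle energy enzymes the 3 medians were 1.86, 1.76 and 1.87, and for myogenic regulators and fusion genes 1.32, 1.21 and 1.40. Mitosis genes had medians of -2.51, -3.0 and -2.73, and DNA replication genes of -1.63, -1.98 and -1.96. These lists thus differed in the same direction in all 3 comparisons. Each comparison set arrays with Ckm above 10 against arrays with Ckm below it, and Ckm is itself in the list of muscle energy enzymes. The shared direction therefore follows from how the arrays were chosen, and nothing further is read from it.

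**Figure D3:**
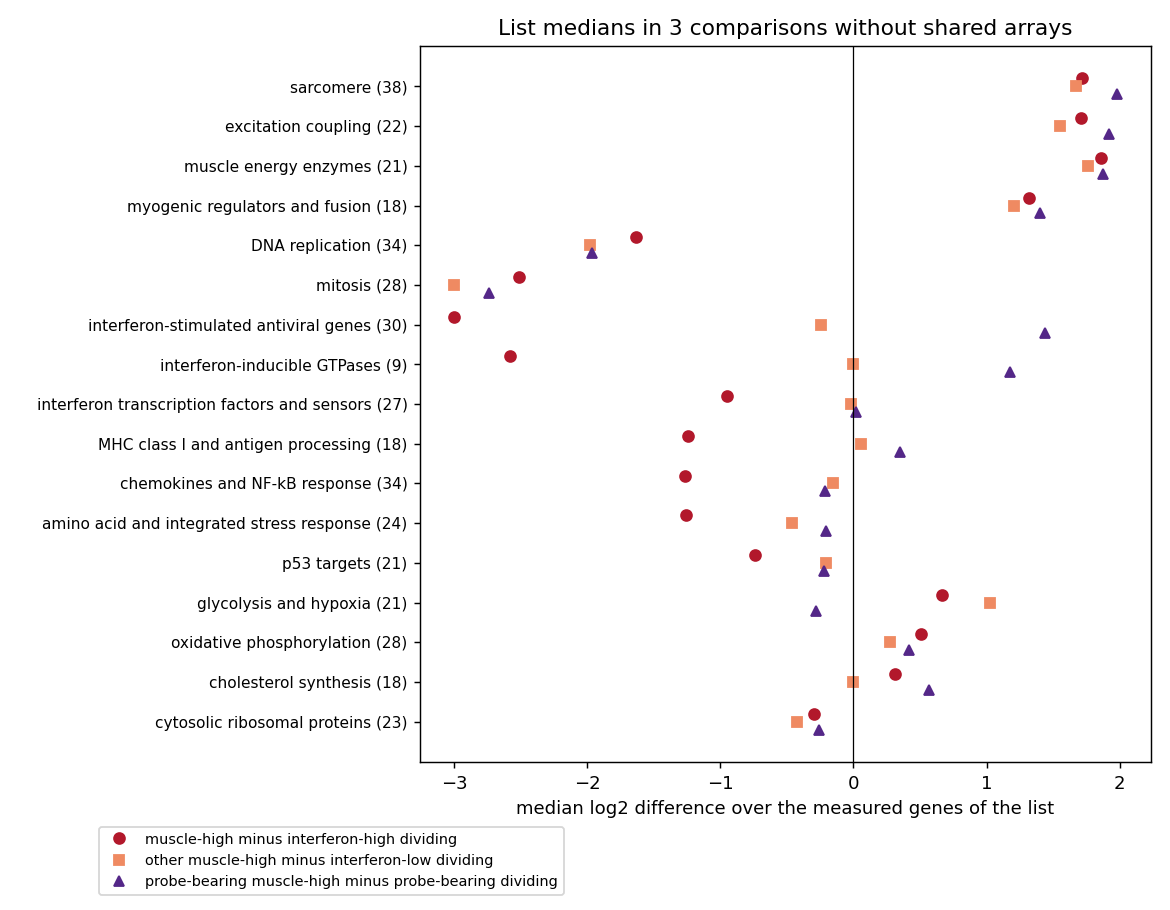
Median log2 difference over the measured genes of 17 lists (number of genes in parentheses) in 3 comparisons that share no array. The symbols of the muscle, replication and mitosis lists lie close together, and those of the antiviral genes run from -3.0 through -0.24 to 1.44.

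The antiviral genes took a different course, with medians of -3.0, -0.24 and 1.44 in the 3 comparisons. Of the 26 that were lower on the muscle-high than on the interferon-high dividing arrays, 14 differed by under 0.5 between the other muscle-high and interferon-low dividing arrays, where 7 of the 30 were lower. Usp18 is 1 of the 14, and the choice of arrays fixed its values in both comparisons. Between the probe-bearing arrays 17 of the 30 were higher and 0 lower. Over all genes 7.06% were lower in the second comparison, and 6.97% higher and 6.73% lower between the probe-bearing arrays. The transcription factors and sensors had medians of -0.95, -0.02 and 0.02, the GTPases of -2.58, 0.00 and 1.17, and the MHC class I genes of -1.24, 0.05 and 0.35. The largest negative differences that were flat in the second comparison, Usp18 left aside because it chose the arrays, were Mx2, Parp14, Irf7, Uba7 (the E1 enzyme for ISG15), Gbp2, Oas1g, Stat2, Hap1 and Bst2 (tetherin). Hap1 and Irf7 were detected on 1 of the 3 muscle-high arrays and Stat2 on 2. All but Hap1, which encodes a partner of huntingtin, belong to the interferon lists. Among all 180 such genes, 139 had a promoter window and 16 of these held an ISRE core (11.5%), against 23 of 511 (4.5%) for genes lower in both comparisons and 2.92% for all genes measured. The 180 genes come from arrays chosen by Usp18, itself induced by interferon. Their share is thus a description and was not tested.

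The interferon-low dividing arrays show where each difference lies. The steps from the interferon-high dividing arrays through these to the muscle-high arrays share the middle arrays and add up to the whole difference. For antiviral genes the median was -0.11 for the muscle-high minus the interferon-low dividing arrays, and -2.54 for the interferon-low dividing minus the interferon-high dividing arrays. For sarcomere genes the 2 medians were 1.85 and -0.17, and for mitosis genes -2.60 and 0.07. Most of the antiviral difference thus lay between the 2 kinds of dividing arrays, and that of the sarcomere and mitosis lists between the muscle-high and the interferon-low dividing arrays. Usp18 had split the dividing arrays and Ckm had split muscle-high from dividing arrays. This placement therefore follows from the choice of arrays and is a description only.

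Some interferon genes had both components. Isg15 stood at 7.06, 6.88 and 7.29 on the other muscle-high arrays, against 9.15, 9.0 and 8.78 on the interferon-low dividing arrays, a difference of -1.90 where that of Usp18 was -0.34. Oasl1 stood at 5.26, 5.21 and 5.56 on the other muscle-high arrays, against 8.52, 8.73 and 8.56 on the interferon-low dividing arrays. Ifit3 (-1.29), Oasl2 (-2.08) and Rsad2 (viperin, an antiviral nucleotide-modifying enzyme, -1.55) were lower there as well. The interferon-low dividing arrays were thus low in Usp18, Mx2 and Irf7 and held middle levels of Isg15, Oasl1 and Rsad2.

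The chemokines were not alike in the second comparison. Ccl5 stood at 4.49, 4.44 and 4.50 on the other muscle-high arrays, against 8.78, 9.04 and 8.96 on the interferon-low dividing arrays, a difference of -4.45. Cxcl10 differed by -2.34 there. Ccl2 (0.21), Cxcl1 (0.35) and Cxcl9 (0.07), all lower in the first comparison, were flat there. Ccl7 differed by -1.89 in the first comparison and by 0.60 in the second. Cxcl12, a chemokine that guides muscle precursors, differed by -2.19 in the first comparison and by -4.16 in the second. Its level was 9.28 to 9.77 on the interferon-high and 10.71 to 11.07 on the interferon-low dividing arrays. Over the 34 genes of the list, 7 were lower and 6 higher in the second comparison, with a median of -0.15. Over all genes 7.06% were lower and 8.62% higher there.

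**Figure D4:**
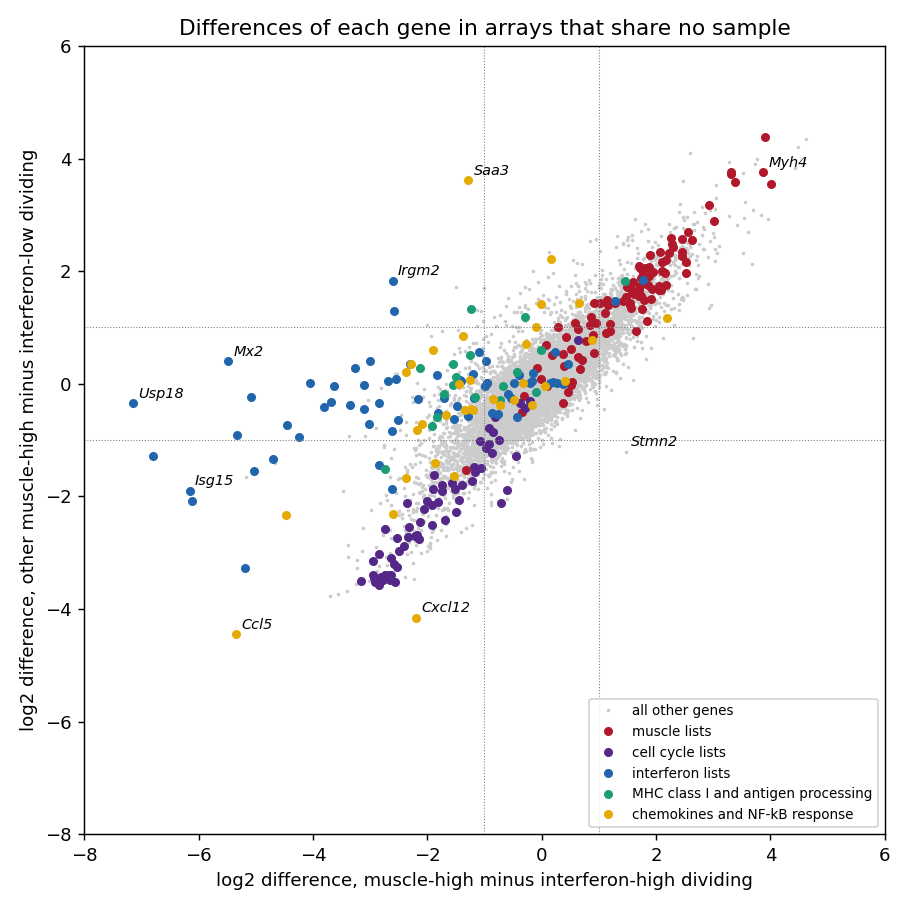
Log2 difference of each of 11921 genes between the muscle-high and interferon-high dividing arrays (horizontal) and between the other muscle-high and interferon-low dividing arrays (vertical), which share no array. Dotted lines mark differences of 1. Most muscle and cell cycle genes have the same sign on both axes, and many interferon genes spread to the left at vertical values near 0.

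12 genes were apart by at least 1 in opposite directions in the first 2 comparisons. Irgm2, an immunity-related GTPase whose promoter is shown above, stood at 7.97, 8.08 and 7.95 on the muscle-high arrays, against 10.49, 10.61 and 10.73 on the interferon-high dividing arrays. On the other muscle-high arrays it stood at 7.86, 8.06 and 8.16, against 6.44, 5.92 and 6.22 on the interferon-low dividing arrays. Both muscle-high sets thus held a like level of Irgm2, and the 2 dividing sets lay on either side of it. The probe-bearing arrays gave 9.38 to 9.54 for muscle-high and 6.03 to 6.36 for dividing arrays. Igtp, a related GTPase, and H2-T23 and H2-Q5, of the nonclassical MHC class I family, had the same order of sets: each was lower on the muscle-high than on the interferon-high dividing arrays and higher on the other muscle-high than on the interferon-low dividing arrays.

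Saa3, an acute-phase protein of inflamed tissue, differed by -1.28 in the first comparison, by 3.62 in the second and by 1.39 in the third. It stood at 7.36, 7.54 and 7.39 on the muscle-high arrays, against 8.87, 8.64 and 8.62 on the interferon-high dividing arrays. It stood at 10.39, 9.82 and 10.16 on the other muscle-high arrays, against 6.33, 6.71 and 6.46 on the interferon-low dividing arrays. Stmn2, a regulator of microtubules known from neurons, went the opposite way, at 1.47, -1.20 and -1.20. The lowest of the 6 sets for Stmn2 was the interferon-high dividing one, at 6.41 to 6.97.

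The muscle-high arrays were not equal to the other muscle-high arrays in antigen presentation. Psmb9, an immunoproteasome subunit, stood at 7.24, 7.25 and 7.13 on the muscle-high arrays, against 5.96, 5.92 and 5.80 on the other muscle-high arrays. H2-K1 lay at 8.62 to 8.75 on the muscle-high arrays and at 7.23 to 7.94 on the other muscle-high arrays. Ly6c1, an interferon-responsive surface protein, lay at 7.19 to 7.66 on the muscle-high arrays and at 5.26 to 5.72 on the other muscle-high arrays. In each of these genes the muscle-high values lay between the interferon-high dividing arrays and the other muscle-high arrays, or, for H2-K1, close to the interferon-high dividing ones. Over the 18 genes of the list, 13 were above their level on the other muscle-high arrays, with a median of 0.20, and the list mean was 7.68 to 7.71 on the muscle-high arrays and 7.33 to 7.36 on the other muscle-high arrays. The interferon-inducible GTPases had 5 of 9 genes above and a median of 0.47, with a list mean of 6.95 to 7.03 against 6.62 to 6.67. The antiviral list as a whole did not share this, with 13 of 30 genes above and a median of -0.07. Bst2 was among those above, by 1.36.

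The probe-bearing muscle-high arrays carried a part of the interferon response only. Isg15 stood at 10.71, 10.996 and 11.14 on the probe-bearing muscle-high arrays, against 6.73, 6.28 and 6.08 on the probe-bearing dividing arrays. Irf7 stood at 6.94, 6.96 and 6.99 on the probe-bearing muscle-high arrays, against 4.34, 4.34 and 4.38 on the probe-bearing dividing arrays. Oas2, an RNA-activated synthetase at 6.50 to 7.15 on the interferon-high dividing arrays, stayed at 4.28 to 4.65 on the probe-bearing muscle-high arrays. Myh4 (2.55) and Pvalb (5.04) were higher on these muscle-high arrays, so the antiviral genes were high on muscle-high arrays here and on dividing arrays in the first comparison.

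Several stress genes were lower on the muscle-high than on the interferon-high dividing arrays. A list of 24 genes of the amino acid and integrated stress response, put together after values had been seen and so no independent evidence, had 15 lower and 0 higher on the muscle-high arrays, with a median of -1.26, against -0.46 and -0.21 in the second comparison and the third. Ddit3 (CHOP, a transcription factor of unresolved stress) stood at 8.42, 8.42 and 8.28 on the muscle-high arrays, against 10.25, 10.39 and 10.39 on the interferon-high dividing arrays. Its differences in the other comparisons were -0.32 and -0.13. Stc2, a secreted stress protein, had the other sign (0.60, 1.19 and 1.36). Atf3, a stress-induced repressor, differed by -2.07, -0.24 and 0.17 in the 3 comparisons. Trib3 (-2.51), a target of CHOP, and Chac1 (-2.41), which degrades glutathione, were also lower between the other muscle-high and interferon-low dividing arrays (-1.69 and -1.85). The list mean was 9.86 to 9.91 on the interferon-high dividing arrays, and the next set, interferon-low dividing, lay at 9.11 to 9.17. Of 21 p53 targets 8 were lower and 1 higher, with medians of -0.74, -0.21 and -0.22. Bbc3 (PUMA, -1.77), which promotes cell death, was lower and Sesn1 (1.52) higher. The 3 probes of Bbc3 ranged between -1.77 and -0.77.

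Few genes were higher on the muscle-high arrays and flat in the second comparison. The 10 largest of these 49 were ND4L (1.83), Sprr1a (1.61), Pdzrn4, Fam189b, Fxyd1, Ivl, Dnase1l1, Mir99ahg, Ccn2 and Csf2rb2. ND4L is a mitochondrial gene of complex I, and Sprr1a and Ivl encode proteins of the cornified envelope of skin. Sprr1a stood at 6.33, 6.86 and 6.72 on the muscle-high arrays, against 5.34, 4.96 and 4.79 on the interferon-high dividing arrays, and lay at 4.34 to 5.51 on the other 12. Ccn2, a matrix-associated growth regulator, stood at 11.09, 10.93 and 10.89 on the muscle-high arrays, against 9.60, 9.61 and 9.78 on the interferon-high dividing arrays. It lay at 11.22 to 11.34 on the other muscle-high and at 11.09 to 11.12 on the interferon-low dividing arrays.

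The 10 largest positive differences over all genes had the same sign in all 3 comparisons. Eef1a2, the translation elongation factor of mature muscle and neurons, stood at 9.64, 9.69 and 9.45 on the muscle-high arrays, against 4.77, 4.78 and 5.38 on the interferon-high dividing arrays. Hpgd, which inactivates prostaglandins, stood at 9.93, 10.03 and 9.88 on the muscle-high arrays, against 6.20, 4.77 and 5.59 on the interferon-high dividing arrays. Eef1a2 was higher by 4.34 on the other muscle-high than on the interferon-low dividing arrays and by 0.94 on the probe-bearing muscle-high arrays, and Hpgd by 3.82 and 1.26. Myadml2 (4.07), Mss51 (3.96), Crct1 (3.83), Gja5 (connexin 40, 3.77) and 2310002L09Rik (at least 19.5-fold) completed the 10 together with Myoz1, Pvalb and Myh4. Of the 3 interferon-high dividing arrays, 1 detected Crct1, 1 detected Myadml2, and 2 detected Mss51 and Myoz1, so these differences are set against signals near background.

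Metabolic lists outside the muscle enzymes differed by less. Glycolysis and hypoxia genes had 3 of 21 higher and 1 lower, with medians of 0.66, 1.03 and -0.28. In the second comparison 12 of the 21 were higher, against 8.62% over all genes. The hypoxia-induced Ankrd37 (2.24, 2.70 and 1.86) had the same sign throughout, while Pdk1, which keeps pyruvate out of mitochondria, differed by 1.56, 2.14 and -0.28. Oxidative phosphorylation genes had 0 of 28 past the limit in any of the 3 comparisons, with a median of 0.51 and 27 of 28 higher in the first. Of 18 cholesterol synthesis genes 4 were higher and 0 lower, with Srebf2, the factor that controls the pathway, at 2.70 and Fdps at 1.92. Of 13 muscle ubiquitin ligases and atrophy genes 8 were higher and 1 lower, led by Asb2 (2.85), Klhl30 (2.15) and Trim63 (MuRF1, 2.09), with medians of 1.20, 1.15 and 1.57. Of 30 collagen and matrix genes 4 were higher and 3 lower, against 8.77% higher and 9.1% lower over all genes. Ribosomal protein genes had 0 of 23 past the limit and a median of -0.30, and the replication-dependent histones and variants had 1 of 11 higher and 3 lower. The satellite cell identity list had 3 of 16 higher, Des (desmin, 1.49) and Ncam1 (1.46) among them, and 2 lower, Vcam1 and Sdc3 (-1.31). Of 5 complement genes 1 was higher and 1, C2 (at least 3.98-fold), lower.

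Markers of other cell types were read without a detection filter. Of 12 macrophage markers 6 were detected on none of the 6 arrays, among them Ptprc, Adgre1 and Itgam, and the mean over the list was 4.70 to 4.74 on the muscle-high and 4.85 to 5.04 on the interferon-high dividing arrays. Laptm5, a lysosomal membrane protein of blood cells, was well above background. It stood at 7.90, 8.10 and 8.02 on the muscle-high arrays, against 9.48, 10.05 and 10.09 on the interferon-high dividing arrays. Laptm5 was lower in all 3 comparisons. Cd14 stood at 5.34, 5.43 and 5.31 on the interferon-high dividing arrays, all 3 of which detected it. Of the muscle-high arrays 1 detected Cd14, and its difference of -0.80 was under the limit. Of 11 fibroblast markers 2 were undetected, and the mean was 5.58 to 5.64 on the muscle-high and 5.20 to 5.36 on the interferon-high dividing arrays. Dcn (decorin, 2.47) and Dpt (1.33) were higher on the muscle-high arrays and Cd34 (-1.13) lower. Of 12 smooth muscle and pericyte markers 3 were undetected (Cnn1, Myh11 and Pdgfrb), and the mean was 7.17 to 7.21 on the muscle-high and 6.46 to 6.69 on the interferon-high dividing arrays. Tagln was at least 2.67-fold higher on the muscle-high arrays, and Smtn (1.73), Des (1.49), Acta2 (1.15) and Lmod1 (1.11) were higher. Of 10 endothelial markers 3 were undetected (Cdh5, Tie1 and Emcn), and the mean was 5.17 to 5.20 on the muscle-high and 4.87 to 5.12 on the interferon-high dividing arrays. Cldn5, a tight junction protein, was at least 4.45-fold higher on the muscle-high arrays and Vwf higher by 1.43. Of 9 adipocyte markers 6 were undetected, and the mean was 5.33 to 5.48 on the muscle-high and 5.44 to 5.57 on the interferon-high dividing arrays, with Pparg lower (-1.03). Of 7 Schwann cell and neuron markers 4 were undetected, and the mean was 5.23 to 5.30 on the muscle-high and 4.90 to 5.05 on the interferon-high dividing arrays, with Ngfr (1.62) and Stmn2 (1.47) higher. The part of such cells in the differences was not tested.

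The labelled comparison closest to the 2 sets was KO day 3 against KO day 0. It was tested with limma across all 18 arrays and 11921 genes, since the labels did not use measured values. No gene passed an adjusted p of 0.05, with 0 past the threshold, a lowest adjusted p of 0.4875 and 992 genes at an unadjusted p under 0.05, where 596 would be expected by chance. The same fit with array weights, which lets arrays far from their group count less, had 6266 genes past the threshold. Ckm stood at 11.39, 11.28 and 10.87 on the KO day 3 arrays, against 11.25, 8.05 and 8.02 on the KO day 0 arrays. Its difference was 2.07 ± 1.44 (SE, n = 3 each, limma adjusted p = 0.499). Usp18 stood at 5.38, 5.25 and 5.08 on the KO day 3 arrays, against 4.48, 12.41 and 12.40 on the KO day 0 arrays, a difference of -4.53 ± 2.15 (SE, limma adjusted p = 0.488). In both genes KO day 0 replicate 1 had the values of the KO day 3 arrays. With KO day 3 replicates 1 and 2 set against KO day 0 replicates 2 and 3 alone, the description gave 1057 genes higher and 1079 lower, a sarcomere median of 1.83, a mitosis median of -2.46 and an antiviral median of -3.0. The differences were thus of like size without the arrays titled Wt. These 4 arrays had been chosen by the same limits on Ckm and Usp18, so the likeness is no independent support. The labels of KO day 3 and KO day 0 also differ in medium and time, so culture day and interferon expression cannot be told apart within these 4 arrays.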

How the data were processed

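Total RNA of 18 myoblast samples was read on Illumina MouseWG-6 arrays. Per the file headers, the authors deposited non-normalised intensities and detection p-values for 45281 probes, and a second table of processed intensities. How those were normalised is not given in the labels or headers. Columns were matched to samples by title. Background was corrected from the detection p-values with an offset of 16, followed by quantile normalisation and log2 (neqc of limma 3.58.1, R 4.3.3). Probes with a detection p below 0.05 on at least 3 arrays were kept (22365), and genes were named from the platform annotation through Entrez identifiers and the RefSeq table of GRCm38.p6. Of 45281 probes 34885 had 1 symbol, 18 several and 10378 none, and the brightest kept probe represented each of 11921 genes. Probes of 1 gene can disagree in sign or size. Their range is given for Tpm3, Myl1, Kif23, Cdc6, Anln, Cenpa and Bbc3, and not for every gene.

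The sets of arrays and the gene lists were chosen with earlier results of these data known. The limits were Ckm 10, Usp18 12 and 6 and the marker probe 6, on the log2 scale. The comparison arrays planned at first (probe-bearing, muscle-high and low in Usp18) numbered 0, so the other muscle-high arrays without the probe and the probe-bearing arrays were taken after the data were seen. No test was made between sets chosen by measured values. KO day 3 was tested against KO day 0 with limma, with 1 mean per labelled group (12 residual degrees of freedom) and Benjamini-Hochberg adjustment. Its p-values rest on the spread among arrays of the same label. Labelled groups such as KO day 0 hold arrays with Ckm above and below 10, so that spread includes the difference between muscle-high and dividing arrays. Whether replicates were separate cultures is not given, and the number of arrays limits the precision. The fit and the call rule were tested on simulated data.

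Named genes were Gata4, Ckm and Usp18, up to 4 members of each list with the largest difference, members of the other sign, the 10 largest differences each way overall and among genes flat (under 0.5) in the comparison arrays, and up to 10 genes of at least 1 in opposite directions. Mymk, Myog, Myod1, Top2a, Cdk1, Psmb9, H2-K1, H2-D1, Ly6c1, Ddit3, Oas2, Rsad2, Acta1 and Cxcl12 were added after their values were seen, for their roles. A probe undetected on all 3 arrays of the dimmer set was given as at least a fold, with the dim value raised to the lowest signal of a detected probe on each array. Promoter windows are the first listed start of a gene, and 4163 genes had several. Deviations of same-numbered KO arrays from their labelled group means had correlations of -0.06, 0.01 and -0.09. KO day 0 holds muscle-high and dividing arrays and KO day 3 only muscle-high ones. These correlations therefore cannot decide whether replicate numbers pair the arrays. Alternatives were the authors' processed values, different background corrections, scalings and detection limits, the mean of a gene's probes, array weights, a replicate block, the 2 labelled groups alone, other limits on the difference and leaving out each array.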

Additional observations from a re-analysis of the deposited data

Results flagged for a closer look

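12 genes differed by at least 1, with no overlap of arrays, in opposite directions between the 2 comparisons that share no array. The first value is the muscle-high minus the interferon-high dividing arrays, the second the other muscle-high minus the interferon-low dividing arrays. The difference between the 2 comparisons was not tested. Irgm2 gave -2.61 and 1.83, and Igtp -2.58 and 1.30, both interferon-inducible GTPases. Slpi, a protease inhibitor of inflamed epithelia, gave -2.01 and 1.04. H2-Q5 gave -1.51 and 1.73 and H2-T23 -1.23 and 1.33, both of the MHC class I region. Saa3 gave -1.28 and 3.62. Rerg gave -1.14 and 1.31, Ndrg1, which hypoxia induces, -1.13 and 1.02, and Pdgfb, a growth factor for pericytes and fibroblasts, -1.06 and 1.29. H4c17, a histone gene with near-identical copies, gave -1.03 and 1.11, and Tfap2c, a transcription factor of trophoblast and skin, -1.01 and 1.70. Stmn2 alone was higher in the first comparison, at 1.47 and -1.20.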

How the results depend on the processing

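The counts of genes higher and lower on the muscle-high than on the interferon-high dividing arrays depended on background correction. They were 640 and 661 with normexp and an offset of 50, 515 and 514 with no background correction, 515 and 459 with the authors' processed values, and 226 and 217 at a limit of 2, against 1046 and 1085. Medians for sarcomere, mitosis and antiviral genes were 1.60, -1.98 and -2.26 with normexp, 1.57, -1.73 and -1.93 without background correction, and 1.63, -2.10 and -2.67 with the mean of a gene's probes. The authors' values gave -1.68 for mitosis and -1.86 for antiviral genes, median scaling 1.91 for sarcomere, and the KO-labelled arrays alone 1.83 for sarcomere. The cause was not tested. Leaving out each array gave 1039 to 1073 higher and 1069 to 1118 lower genes, and medians of 1.63 to 1.78, -2.53 to -2.45 and -3.05 to -2.92. Between the other muscle-high and the dividing arrays with Usp18 below 6 together, sarcomere was 1.76 and antiviral -0.073. The probe-bearing arrays gave 1.98 for sarcomere, -2.73 for mitosis, 1.44 for antiviral genes and, with the sign turned, -0.28 for glycolysis and hypoxia. Of 127 called named genes, Tpm3 alone changed sign over 15 settings, to 1.49 with the mean of its probes; the sign follows from which probes are read. Of the uncalled named genes 17 changed sign, as did the median of satellite cell and myoblast identity (0.03 as reported). The labelled KO comparison had 0 genes past the threshold with the replicate block, with the 2 groups alone, with normexp, with the authors' values, without a detection filter and without any 1 array (0 to 0), and 6266 with array weights; the cause was not tested. Where the dimmer set was undetected on all 3 arrays (72 higher and 52 lower genes), only a bound is measured.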
